A study of Homo sapiens with 2 samples.

Results

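Non-cycling HT1080 cells with little MALAT1 RNA were described, and the cells of the 4B4 library were set against those of the control library within them. HT1080 is an established human fibrosarcoma line that invades collagen. The cells were chosen by measured values: at least 1000 detected genes, at most 10% of unique molecular identifiers (UMIs) from mitochondrially encoded (MT-) genes, TOP2A plus MKI67 under 60 UMIs per 1000000 UMIs of the cell (UPM), and MALAT1 under 6000 UPM. The rule found 991 of the 5401 deposited barcodes, 456 in the 4B4 library and 535 in the control library. None of these cells carried either of the 2 barcodes that the libraries shared.

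The 4B4 culture received 2 µg/ml of the antibody 4B4, which inhibits β1 integrin, and the control culture is labelled only as control, with no other antibody named. Both were wild-type HT1080 spheroids of 2000 cells each, about 50 per sample in 500 µl of collagen, taken after 72 h. Each group was 1 library, so no difference was tested, and differences between cultures, libraries and treatment cannot be told apart. All intervals are at 95% and cover counting error only, and counts alone set how a gene was called.

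MALAT1 is a long noncoding RNA kept in the nucleus, where it gathers at nuclear speckles, and it is among the most abundant polyadenylated RNAs of cultured cells. β1 integrin, encoded by ITGB1, pairs with several α subunits to form receptors for collagen, fibronectin and laminin. Attachment and tension on matrix are known to hold the coactivators YAP and TAZ in the nucleus, where they bind TEAD factors at promoters and enhancers. Lysosomes break down material taken up by the cell and feed amino acids, lipids and iron back to the cytoplasm.

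Of the adhesion-linked lists, the YAP and TEAD targets had the lowest median ratio of 4B4 over control in the low-MALAT1 cells, and the promoters of 3 of them are shown because they carry the TEAD core sequence. ANKRD1, CCN2 and AMOTL2 were picked after their values were seen. Windows run from 250 bases before to 50 bases after a RefSeq start on GRCh38.p14, written 5′ to 3′ on the gene's own strand, which is the minus strand for all 3. Capitals mark GGAATG and its reverse complement CATTCC.
ANKRD1, chr10:90921038-90921337: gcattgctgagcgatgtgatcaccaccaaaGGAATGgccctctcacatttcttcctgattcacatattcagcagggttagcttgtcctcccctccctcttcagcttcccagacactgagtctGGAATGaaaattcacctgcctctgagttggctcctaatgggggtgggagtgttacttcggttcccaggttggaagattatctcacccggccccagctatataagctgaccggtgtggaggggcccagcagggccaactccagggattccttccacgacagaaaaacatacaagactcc
CCN2, chr6:131951323-131951622: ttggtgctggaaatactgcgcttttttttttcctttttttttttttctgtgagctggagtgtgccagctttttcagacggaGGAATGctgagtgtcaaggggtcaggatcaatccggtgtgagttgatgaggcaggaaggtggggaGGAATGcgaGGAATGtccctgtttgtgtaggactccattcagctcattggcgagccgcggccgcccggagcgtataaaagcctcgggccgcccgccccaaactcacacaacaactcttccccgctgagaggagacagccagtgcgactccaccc
AMOTL2, chr3:134374398-134374697: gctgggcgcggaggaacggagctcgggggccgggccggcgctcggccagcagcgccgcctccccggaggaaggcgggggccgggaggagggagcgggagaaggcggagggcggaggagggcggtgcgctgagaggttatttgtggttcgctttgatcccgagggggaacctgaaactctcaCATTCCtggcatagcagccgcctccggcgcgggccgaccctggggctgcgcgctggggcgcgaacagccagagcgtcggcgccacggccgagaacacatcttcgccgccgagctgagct
The ANKRD1 window held 2 matches, the CCN2 window 3 and this AMOTL2 window 1, while the window at a second AMOTL2 start, chr3:134375368-134375667, held 0. Of 24 listed targets 17 had a RefSeq window, and 10 of these (58.8%) held the hexamer in at least 1 window, against 16.7% of all 27305 genes with a window and 15.1% of the 8141 that were also measured here. The list names genes known for TEAD binding, and a match of letters is a description, not evidence of binding in these cells.

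The low-MALAT1 cells made up 48.2% of the 947 non-cycling cells of the 4B4 library (44.9 to 51.4%) and 41.6% of the 1285 of the control library (38.9 to 44.4%). Among cells of 30000 to 90000 UMIs the shares lay closer, at 45.3% (41.0 to 49.6%) and 43.2% (39.4 to 47.1%), with overlapping intervals. The bound at 6000 UPM cut through a continuous range: 7 cells in the 4B4 library and 25 in the control library lay between 5500 and 6000, and 12 and 18 between 6000 and 6500. The 4B4 cells sat lower within the range. Median MALAT1 was 449.7 UPM in 4B4 cells and 883 in control cells, 73.2% and 51.8% of cells were under 1000, and 8.99% and 14.95% lay between 4000 and 6000. Only 2 of the 4B4 cells and 3 of the control cells had no MALAT1 UMI.

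Depth also differed. Low-MALAT1 cells had a median of 73422 UMIs and 7756.5 detected genes in the 4B4 library, against 32766 UMIs and 5639 genes in the control library, and their summed counts were 44563591 and 19943501 UMIs. At the median depth the bound on TOP2A plus MKI67 admits up to 4 UMIs in a 4B4 cell but 1 in a control cell. No UMI of either gene was present in 68.6% of 4B4 cells and 73.1% of control cells. The MT- filter removed 662 4B4 barcodes and 1507 control barcodes before this selection.

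**Figure D1:**
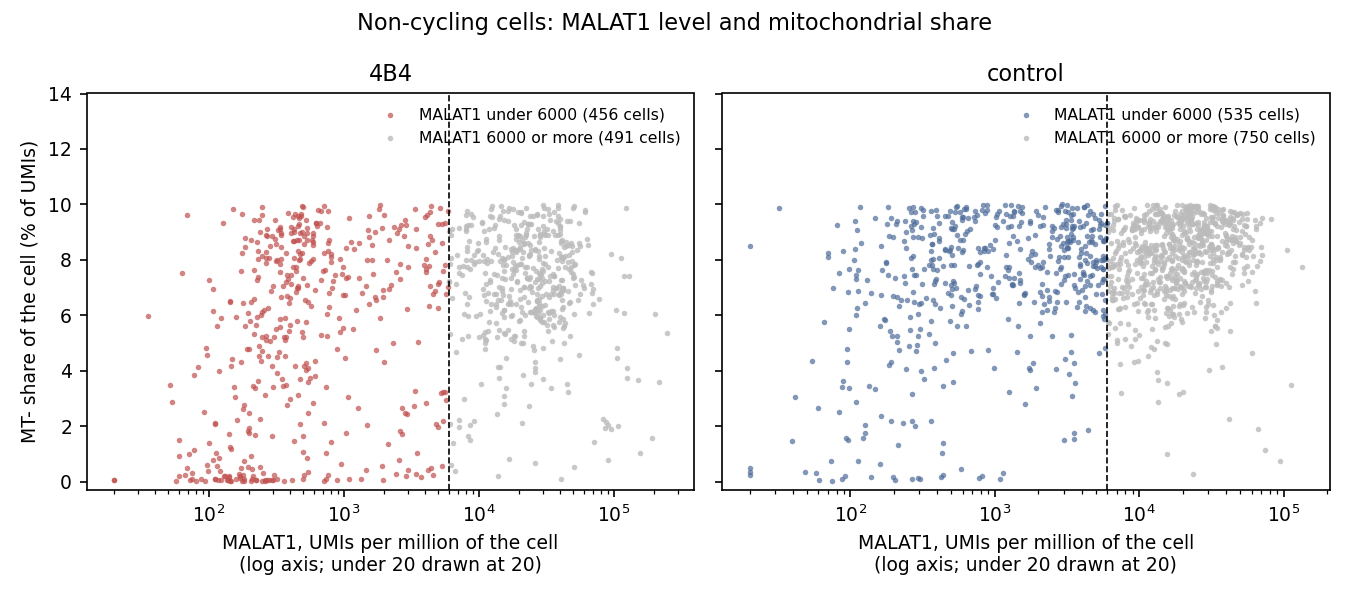
Each point is a non-cycling cell of the 4B4 library (left) or the control library (right), with MALAT1 in UPM on a log axis and the MT- share in percent. Coloured points lie under the MALAT1 bound of 6000 (dashed line, 456 and 535 cells) and grey points at or above it (491 and 750 cells), and a band of cells under 1% MT- is seen mainly to the left of the bound.

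The low-MALAT1 cells were also uneven in their mitochondrial share, as the plot of MALAT1 against MT- share shows. Cells with under 1% MT- UMIs numbered 86 of the 4B4 cells (18.9%) and 25 of the control cells (4.67%), and they held 28.9% and 5.64% of the summed UMIs. Among MALAT1-rich non-cycling cells, those at 6000 UPM or more, such cells were 1.63% in the 4B4 library and 0.4% in the control library. In the 4B4 library the cells under 1% were deep, with a median of 130196 UMIs against 64671.5 in cells of 4 to 10%. In the control library the medians were 35700 and 32223. Levels moved with the MT- share in both libraries, so several results are also given by class. Cells of 4 to 10% numbered 296 in the 4B4 library and 471 in the control library.

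For a library, UPM is a gene's summed UMIs over those of all the cells, and its ratio, 4B4 divided by control, is given as a log2 value. A gene was called at 1.5-fold or more with its interval on the same side of 1. Of 5610 genes at 20 UPM or more in either library, 126 (2.25%) were called higher and 342 (6.1%) lower. At 2-fold the counts were 24 (0.428%) and 120 (2.14%). In MALAT1-rich cells 130 of 7078 genes (1.84%) were called higher and 133 (1.88%) lower. Scaling by edgeR's TMM factors moved the median of all measured genes by 0.12 and gave 250 higher and 242 lower, and DESeq2 size factors moved it by 0.15 and gave 289 and 220. Lower calls outnumbered higher ones with total UMIs, and not under either of these scalings. In cells under 1000 UPM MALAT1 with 4 to 10% MT-, a choice made after seeing the data, 222 genes were called higher and 123 lower.

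The difference from MALAT1-rich cells, which the rule itself set apart, is given as a description. Of 3456 genes at 50 UPM or more, 156 (4.51%) were called higher in low-MALAT1 cells in both libraries and 1096 (31.7%) lower. In the 4B4 library alone 12.8% were called higher and 36.7% lower, and in the control library 5.03% and 32.0%. Noncoding RNAs and genes of long span were among the lowest. MALAT1 stood at 1271 UPM in low-MALAT1 cells and 23933 in MALAT1-rich cells of the 4B4 library, and at 1777 and 21925 UPM in those of the control library. ROBO2, a receptor for axon guidance cues whose gene spans 1743 kb, stood at 6.44 and 64.1 UPM in the 4B4 library and at 8.62 and 58.3 in the control library. GPC5, a cell-surface heparan sulfate carrier, and LSAMP and NBEA, best known from neurons, span 1475, 1337 and 730.7 kb and had log2 ratios from -3.25 to -2.43. The other genes named by size were the noncoding LINC02163, LINC01239, LINC01473, MIR548XHG and LINC01687.

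Messages of short housekeeping genes were among the highest. GAPDH, a glycolytic enzyme, stood at 5978 UPM in low-MALAT1 cells and 2779 in MALAT1-rich cells of the 4B4 library, and at 5023 and 2694 UPM in those of the control library. PFN1, the actin monomer-binding protein profilin, stood at 1911 and 899 UPM in the 4B4 library and at 1497 and 768 in the control library. FXYD5, MRPL37, G6PC3, TUBA1B, CSNK2B, TECR, CYC1 and SLC25A39 differed by 0.87 to 1.10 on the log2 scale in both libraries. Transcripts of ribosomal proteins took 26.0% of UMIs in low-MALAT1 cells and 18.9% in MALAT1-rich cells of the 4B4 library, and 25.4% and 19.7% in the control library.

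Gene span on GRCh38, from GENCODE release 29, ordered these differences. Genes under 10 kb had a median log2 ratio of low-MALAT1 over MALAT1-rich cells of 0.44 in the 4B4 library and 0.34 in the control library, and genes over 300 kb had medians of -2.10 and -1.51. The slope was steeper in the 4B4 library, and the same order appeared between the libraries within the low-MALAT1 cells. There, 4B4 over control had a median of 0.08 for genes under 10 kb, -0.22 for genes of 100 to 300 kb and -0.52 for the 458 genes over 300 kb, of which 44.5% were called lower. In MALAT1-rich cells the medians ran from 0.00 to 0.09. Genes called lower in 4B4 had a median span of 106 kb, those called higher 15.8 kb, and all tested genes 28.4 kb. The part of span in any single gene's ratio was not tested, and these medians apply to the long genes named.

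**Figure D2:**
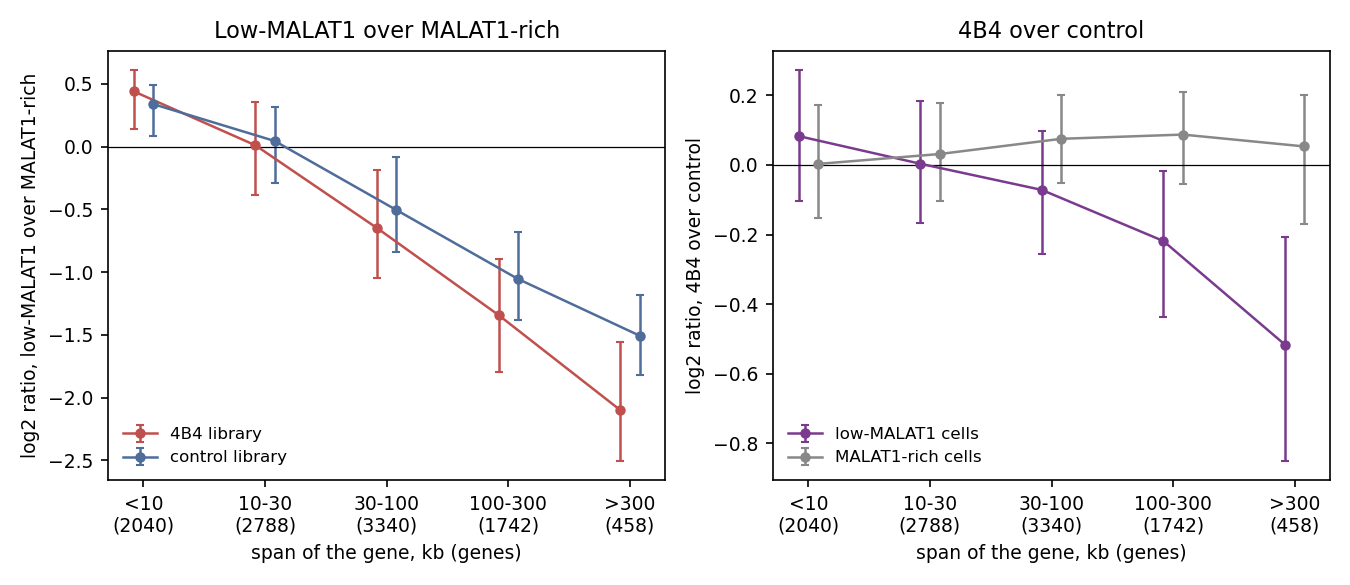
Points are medians over genes and bars the quartiles, by gene span in kb, with the number of genes in parentheses. Left, low-MALAT1 over MALAT1-rich cells falls with span in both libraries, to -2.10 in 4B4 and -1.51 in control. Right, 4B4 over control falls with span to -0.52 in low-MALAT1 cells and stays between 0.00 and 0.09 in MALAT1-rich cells.

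The genes given as markers of these cells were checked against their levels. GABARAP, which tags autophagosome membranes, stood at 1363 UPM in low-MALAT1 cells and 715 in MALAT1-rich cells of the 4B4 library, and at 927 and 601 UPM in those of the control library. GRN, the lysosomal and secreted protein progranulin, differed by 0.71 and 0.72 on the log2 scale. TIMP1, APOE and APOC1 passed 1.5-fold in the 4B4 library, with 0.59, 1.10 and 0.63, but reached only 0.38, 0.27 and 0.16 in the control library. The label restates the rule on MALAT1, so the levels of GABARAP and GRN beside it describe the cells and do not support the label. The 5 markers had a median span of 4.48 kb, and all genes under 10 kb had medians of 0.44 in the 4B4 library and 0.34 in the control library. Of 5 fibroblastic genes checked, VIM, LGALS1 and S100A4 were present at 1293, 1712 and 188 UPM in 4B4 cells and 1913, 1918 and 235 UPM in control cells. Their log2 ratios to MALAT1-rich cells ran from 0.03 to 0.53. The others were lower than in MALAT1-rich cells. CDH2, at 17.5 and 28.6 UPM, had ratios of -1.20 in the 4B4 library and -0.72 in the control library, and FN1 had -0.66 and -0.67.

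Markers of other cell types were low. The 6 leukocyte markers summed to 13.2 UPM in 4B4 cells and 11.3 UPM in control cells, with PTPRC at 20 and 4 UMIs in all. The 5 fibroblast-stroma markers summed to 4.58 and 4.06 UPM, and the 4 erythroid and hepatocyte markers to 2.20 and 2.16 UPM, with HBB at 0 UMIs. Of the 5 epithelial markers KRT5 and KRT14 had 0 UMIs in these cells, and the sum of 11.5 and 9.03 UPM was mostly CLDN4. Endothelial markers summed to 34.6 and 17.4 UPM, of which PECAM1, a surface adhesion molecule, gave 33.5 and 16.5 while CDH5 had 11 and 3 UMIs.

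Secreted products differed in both directions. Of 144 listed genes 106 reached 5 UPM in at least 1 library, and 15 were called higher in 4B4 and 20 lower, or 14.2% and 18.9%, against 2.54% and 8.88% of all 10399 genes measured at that level. DESeq2 scaling gave 21 higher and 17 lower, and the cells matched on MALAT1 and MT- share, under 1000 UPM and at 4 to 10%, gave 22 and 14. The balance of all genes turned as well. At 20 UPM, DESeq2 scaling gave 289 genes higher and 220 lower, and the matched cells gave 222 and 123. The family's median log2 ratio was 0.06 and that of all genes -0.05. Higher genes included lipid carriers, matrix proteins, the protease inhibitor TIMP1 and several proteases. Lower genes included plasminogen activators, the CCN proteins and several growth factors.

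APOE and APOC1 encode small apolipoproteins that carry lipid out of cells, and they lie beside each other at chr19:44905754-44909393 and chr19:44914247-44919349. APOE stood at 199 UPM (8870 UMIs) in 4B4 cells and 78.4 UPM (1563 UMIs) in control cells, a log2 ratio of 1.34 (1.27 to 1.42). Across single cells its level had a 10th percentile, median and 90th percentile of 0, 72.1 and 537 UPM in the 4B4 library, against 0, 18.8 and 224 in the control library. The ranges overlapped widely, and 72.6% of 4B4 cells lay above the control median. APOC1 stood at 103 UPM in 4B4 cells and 37.5 in control cells (1.46; 1.34 to 1.57). In MALAT1-rich cells APOE was 92.6 UPM in the 4B4 library and 64.9 in the control library, a ratio of 0.51 (below 1.5-fold), and APOC1 was 66.4 and 33.5 UPM. Whether the APOE ratio differs between low-MALAT1 and MALAT1-rich cells was not tested.

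TIMP1, an inhibitor of matrix metalloproteinases, was the most abundant gene among those called higher in this family. It stood at 5141 UPM in 4B4 cells and 2565 UPM in control cells (1.00; 0.99 to 1.02), and 79.2% of 4B4 cells lay above the control median of 1663 UPM. SPP1, the secreted integrin ligand osteopontin, stood at 185 UPM in 4B4 cells and 63.5 in control cells (1.54; 1.45 to 1.63), with 87.3% of 4B4 cells above the control median. FN1, fibronectin itself, stood at 905 and 526 UPM (0.78; 0.75 to 0.81). Its span of 75.7 kb puts it among genes whose median ratio was -0.07.

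Of 17 measured proteases and inhibitors 6 were called higher and 4 lower, or 35.3% and 23.5%, against 2.54% and 8.88% of all genes. HTRA1, a secreted serine protease, stood at 460 UPM in 4B4 cells and 290 in control cells, FURIN, a convertase of proproteins, at 41.9 and 26.0, and MMP14, the membrane-anchored collagenase, at 58.3 and 35.5. PRSS35, a serine protease-like protein, had 17.3 UPM in 4B4 cells and 7.82 in control cells (1.15; 0.90 to 1.40), and CEMIP, which degrades hyaluronan, 27.4 and 15.3. PLAU, the urokinase plasminogen activator, was lower, with 95.8 UPM in 4B4 cells and 192 in control cells (-1.001; -1.06 to -0.94). PLAT, the tissue activator, had 43.2 and 104 UPM (-1.26; -1.35 to -1.17). Among cells of 30000 to 90000 UMIs the PLAU ratio was -0.46, short of 1.5-fold.

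Cytokines and growth factors counted 2 higher and 8 lower of 31, or 6.45% and 25.8%, against 2.54% and 8.88% of all genes. The balance varied, with 6 higher and 6 lower under DESeq2 scaling, 5 and 4 in cells of 30000 to 90000 UMIs, and 6 and 7 in the matched cells. TGFB1 had 232 UPM in 4B4 cells and 151 in control cells, and IL11, an IL-6 family cytokine, 34.1 and 17.1. The 5 4B4 cells with most IL11 held 48.2% of its UMIs, and without the 1% of cells holding most in each library its ratio was 0.54, short of 1.5-fold. Its sign also changed with MALAT1. The ratio was 1.59 below 500 UPM, -1.23 at 500 to 1000, 0.39 at 1000 to 2000, -0.18 at 2000 to 4000 and 1.28 at 4000 to 6000. SAA1, an acute-phase protein, had 12.9 UPM in 4B4 cells and 49.3 in control cells (-1.93; -2.08 to -1.78). Here 5 cells held 81.4% of the 4B4 UMIs, and without the top 1% of each library the ratio was -3.55. TGFB2, IGFBP7 and CXCL8 had 6.42, 91.0 and 6.24 UPM in 4B4 cells and 17.9, 181 and 11.3 UPM in control cells. Outside the list IL1B, an inflammatory cytokine, had 126 and 48.5 UPM (1.38; 1.28 to 1.48).

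A few secreted genes rested on few cells. S100A9, a calcium-binding protein of inflammation, had 29.2 UPM in 4B4 cells and 7.52 in control cells (1.96; 1.71 to 2.21). Its median across cells was 0 in both libraries. The 5 4B4 cells with most S100A9 held 50.6% of its UMIs and the 6 such control cells 76.7%. Without the 1% of cells holding most in each library the ratio was 3.06. It was 5.97 (3.49 to 11.3) under 1% MT-, where the control cells held 1 UMI, 3.62 (2.25 to 5.51) at 1 to 4% and 0.82 (0.54 to 1.11) at 4 to 10%. In the matched cells it was 0.91. PTX3, a pattern-recognition protein, had 15.2 and 35.4 UPM (-1.22), with 57.8% of its 4B4 UMIs in 5 cells, and reached only -0.16 in cells matched on both MALAT1 and MT- share. Without the top 1% its ratio was -2.24.

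**Figure D3:**
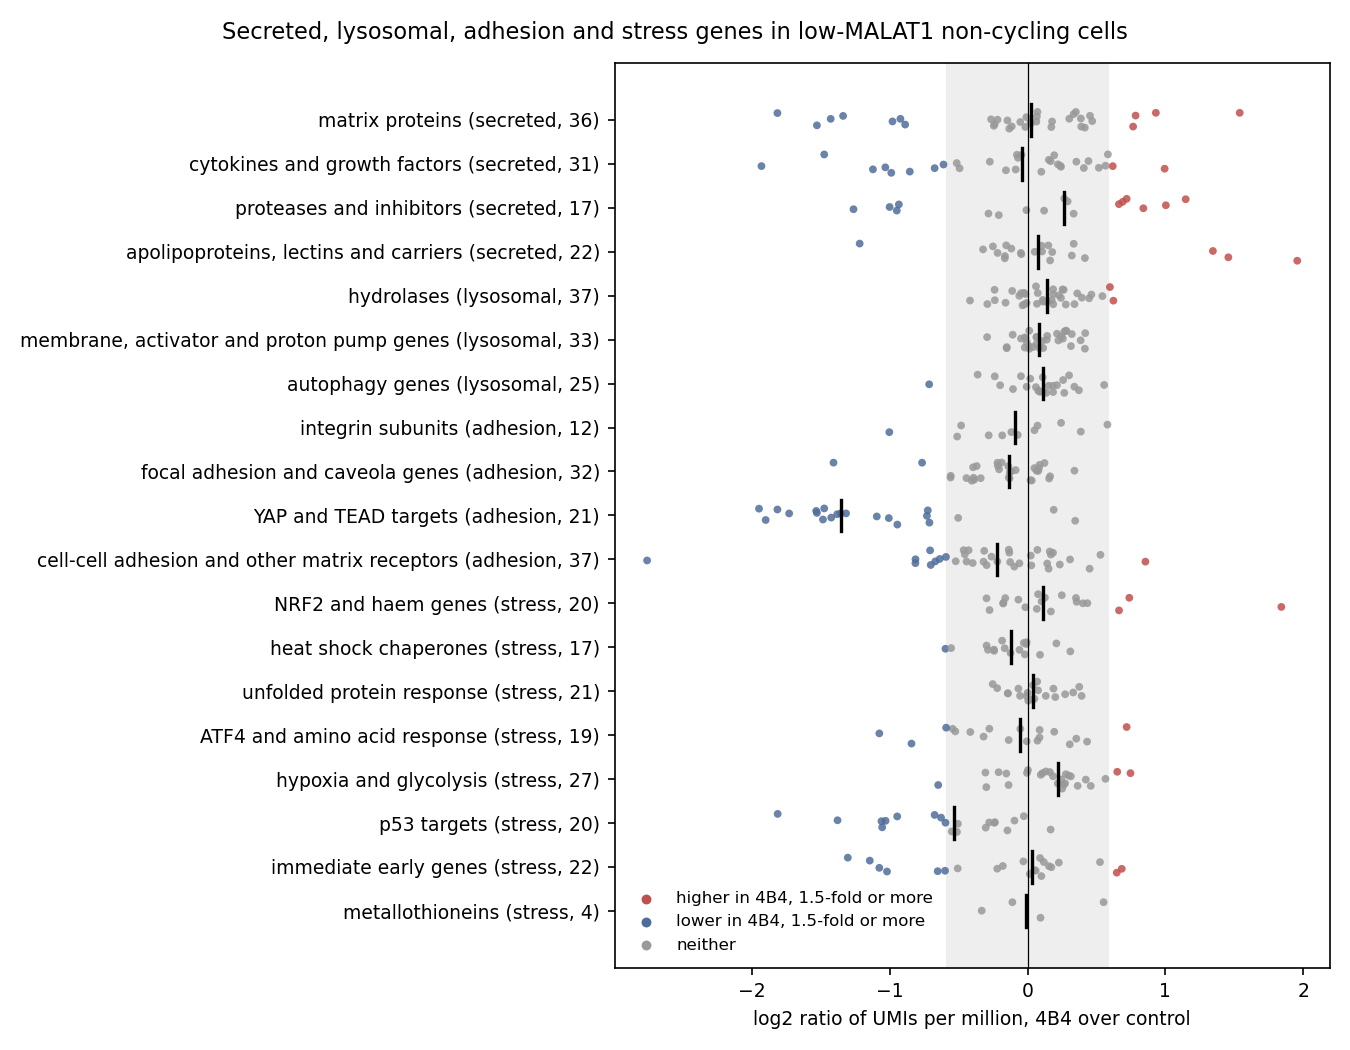
Each point is a listed gene measured at 5 UPM or more, by its log2 ratio of 4B4 over control in low-MALAT1 cells, and black bars are list medians. Family and number of genes are given with each list, and the grey band marks ratios under 1.5-fold. Of the lists drawn only the YAP and TEAD targets (-1.36) and the p53 targets (-0.53) have a median beyond -0.5, while the lysosomal lists lie close to 0.

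Few lysosomal genes differed between the libraries. Of 106 listed genes 95 were measured, 2 were called higher and 1 lower, or 2.11% and 1.05%, against 2.54% and 8.88% of all genes. The median log2 ratio was 0.11, against -0.05 for all genes, and 66 of the 95 ratios were above 0. ACP2, the lysosomal acid phosphatase, had 39.6 UPM in 4B4 cells and 25.7 in control cells (0.62; 0.48 to 0.77), and CTSO, a cysteine protease, 14.9 and 9.88 (0.60; 0.37 to 0.83). Both calls are close to 1.5-fold: ACP2 was short of it under 10 of the 18 alternatives for single genes and CTSO under 5. ATG7, an enzyme of autophagosome formation, had 19.1 and 31.3 UPM (-0.71). Its gene spans 285.4 kb, and it fell short of 1.5-fold in the matched cells, with -0.35.

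The abundant hydrolases were not called. CTSB, a cysteine protease, had 404 UPM in 4B4 cells and 293 in control cells, a ratio of 0.46 (0.42 to 0.51), and the aspartyl protease CTSD had a ratio of 0.36. Neither reached 1.5-fold. CTSZ and PPT1 had ratios of -0.03 and -0.01. GRN had 451 UPM in 4B4 cells and 361 in control cells (0.32; 0.28 to 0.36), PSAP, the precursor of saposins, 227 and 170 (0.42), and the proton pump subunit ATP6V1G1 344 and 258 (0.42). LAMP1 and LAMP2, the main membrane glycoproteins, had ratios of 0.06 and 0.04, and the tetraspanin CD63 -0.15. GABARAP had 1363 and 927 UPM (0.56; 0.53 to 0.58), just short of 1.5-fold, and 0.29 in cells of 4 to 10% MT-.

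The hydrolase list summed to 2342 UPM in low-MALAT1 cells and 1994 in MALAT1-rich cells of the 4B4 library, and to 2019 and 1800 UPM in those of the control library. Of the 37 measured hydrolases 1 was called higher than in MALAT1-rich cells in both libraries and 3 lower, against 3.22% and 34.1% of all genes. ARSA, arylsulfatase A, was the higher one, with 0.79 and 0.67 on the log2 scale. MANBA, HGSNAT and CTSO were the lower ones, and these 4 genes were named after their values were seen.

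Most adhesion-linked genes called lower in 4B4 were YAP and TEAD targets. Of 102 measured members 1 was called higher and 29 lower, or 0.98% and 28.4%, against 2.54% and 8.88% of all genes, among which lower calls also outnumbered higher ones. The median ratio was -0.27. The YAP and TEAD targets supplied 18 of the lower calls, out of 21 measured (85.7%), with a median of -1.36. They summed to 435.3 UPM in 4B4 cells and 1019 UPM in control cells. Their median span was 81.3 kb, and genes of 30 to 100 kb had a median of -0.07.

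CCN1, a secreted matricellular protein, had 47.6 UPM in 4B4 cells and 167 in control cells (-1.82; -1.89 to -1.74). Its 10th percentile, median and 90th percentile across cells were 0, 12.04 and 133 UPM in the 4B4 library, against 0, 69.8 and 410 in the control library, and 18.2% of 4B4 cells lay above the control median. At 3.20 kb CCN1 is a short gene, of the class whose median ratio was 0.08. CCN2, whose promoter is printed above with 3 matches, had 25.4 and 73.4 UPM (-1.53; -1.64 to -1.42), and is as short. ANKRD1, a nuclear and sarcomeric ankyrin-repeat protein, had 24.1 and 92.96 UPM (-1.95; -2.06 to -1.84). Its 5 highest 4B4 cells held 40.3% of its UMIs there, and without the top 1% of each library the ratio was -2.37. AMOTL2, which binds YAP and holds it outside the nucleus, had 8.93 and 33.3 UPM (-1.90; -2.08 to -1.72). AXL, a receptor tyrosine kinase, had 20.1 and 42.9 UPM, and LATS2, a kinase that restrains YAP, 12.97 and 24.97.

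The size of these ratios depended on which low-MALAT1 cells were compared. Within 5 MALAT1 bins the list's median was -0.72 below 500 UPM, -0.94 at 500 to 1000, -0.84 at 1000 to 2000, -1.39 at 2000 to 4000 and -1.58 at 4000 to 6000, while all measured genes had medians from -0.11 to 0.05. By MT- share it was -0.77 under 1%, -0.82 at 1 to 4% and -1.02 at 4 to 10%, where 16 of 21 were called lower and 1 higher, against 7.0% and 3.13% of all genes. In cells with MALAT1 under 1000 UPM and 4 to 10% MT- it was -0.64, with 12 of 21 called lower and 1 higher, against 3.89% and 5.36% of all genes. There CCN1 had a ratio of -0.93, AMOTL2 -1.39 and CCN2 -0.61, and ANKRD1 fell short of 1.5-fold with -0.52. In cells with few S and G2M transcripts 15 of 21 were called lower and 1 higher, against 6.49% and 3.38% of all genes. Under TMM and DESeq2 scaling 18 and 15 were called lower. In MALAT1-rich cells the list's median was -0.70 and 11 members were called lower and 0 higher, against 2.77% and 1.99% of all genes. The targets were thus lower in 4B4 in every bin, by medians that ranged from -0.72 to -1.58.

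**Figure D4:**
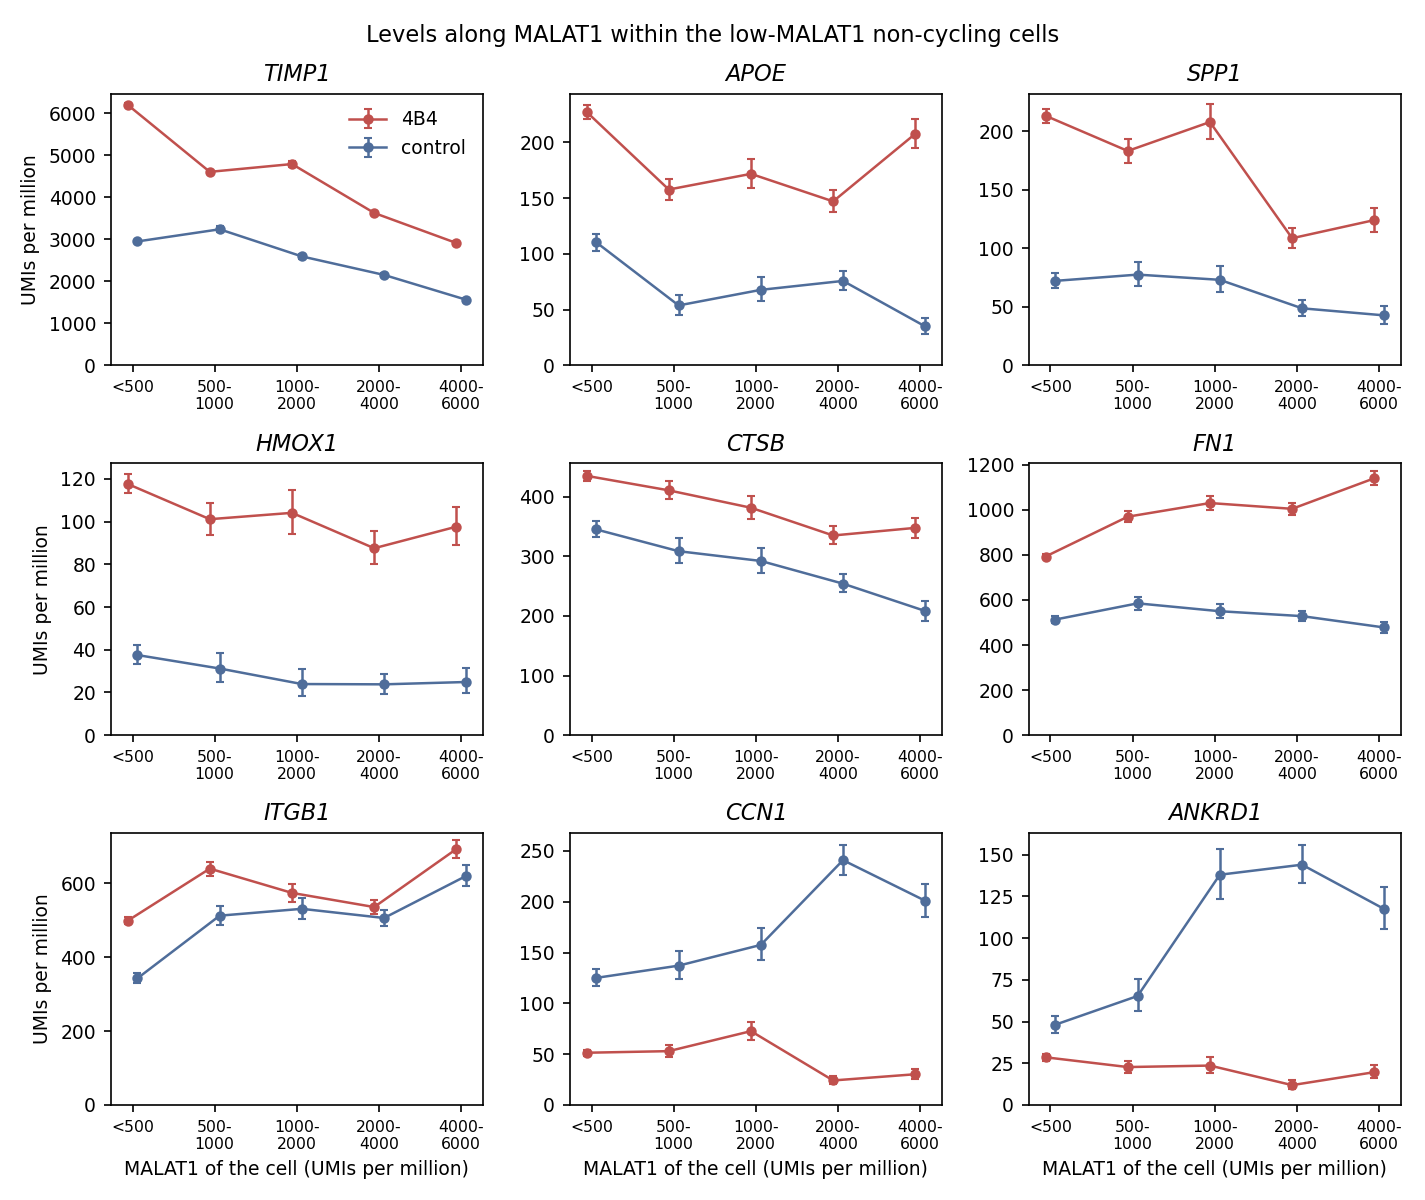
Levels in UPM (95% Poisson intervals) of 9 genes in 5 bins of MALAT1 per cell, for 4B4 and control. TIMP1, APOE, SPP1, HMOX1, CTSB and FN1 lie higher in 4B4 in every bin and CCN1 and ANKRD1 lower, while the ITGB1 ratios are between 0.08 and 0.16 above 1000 UPM.

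In control cells CCN1 and ANKRD1 rose with MALAT1 up to 2000 to 4000 UPM, as the plot of levels along MALAT1 shows. ANKRD1 had 28.6 UPM in 4B4 cells and 48.1 in control cells below 500 UPM, and 11.9 and 144 UPM at 2000 to 4000. TIMP1 had 6198 and 2949 UPM below 500, and 2911 and 1562 UPM at 4000 to 6000, and 4B4 was the higher library in each bin. APOE fell to 35.0 UPM at 4000 to 6000 in control cells, but stood at 208 UPM there in 4B4 cells.

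Of 12 measured integrin subunits 0 were called higher and 1 lower (8.33%), a share near the 8.88% of all genes. In cells with MALAT1 under 1000 UPM and 4 to 10% MT- the calls were 1 higher and 0 lower, against 5.36% and 3.89% of all genes. ITGB1 reached 0.67 there, and ITGA6 fell short of 1.5-fold with -0.52. ITGB1, the target of the antibody, had 553 UPM in 4B4 cells and 467 in control cells, a ratio of 0.24 (0.21 to 0.28). This pooled value was below the ratio in each MT- stratum, which was 0.67 under 1%, 0.85 at 1 to 4% and 0.57 at 4 to 10%. ITGB1 had 286 UPM in 4B4 cells and 180 in control cells under 1% MT-, and 764 and 513 UPM at 4 to 10%, and the 4B4 library held a larger share of its UMIs in the low strata. ITGA6, a laminin receptor subunit, was the lower one, with 19.6 and 39.4 UPM (-1.003; -1.14 to -0.86). ITGA2 and ITGA5, of the collagen and fibronectin receptors, had ratios of 0.05 and 0.07, ITGAV -0.28 and ITGB5 -0.48. The antibody acts on the protein, so the ITGB1 RNA level checks no label.

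**Figure D5:**
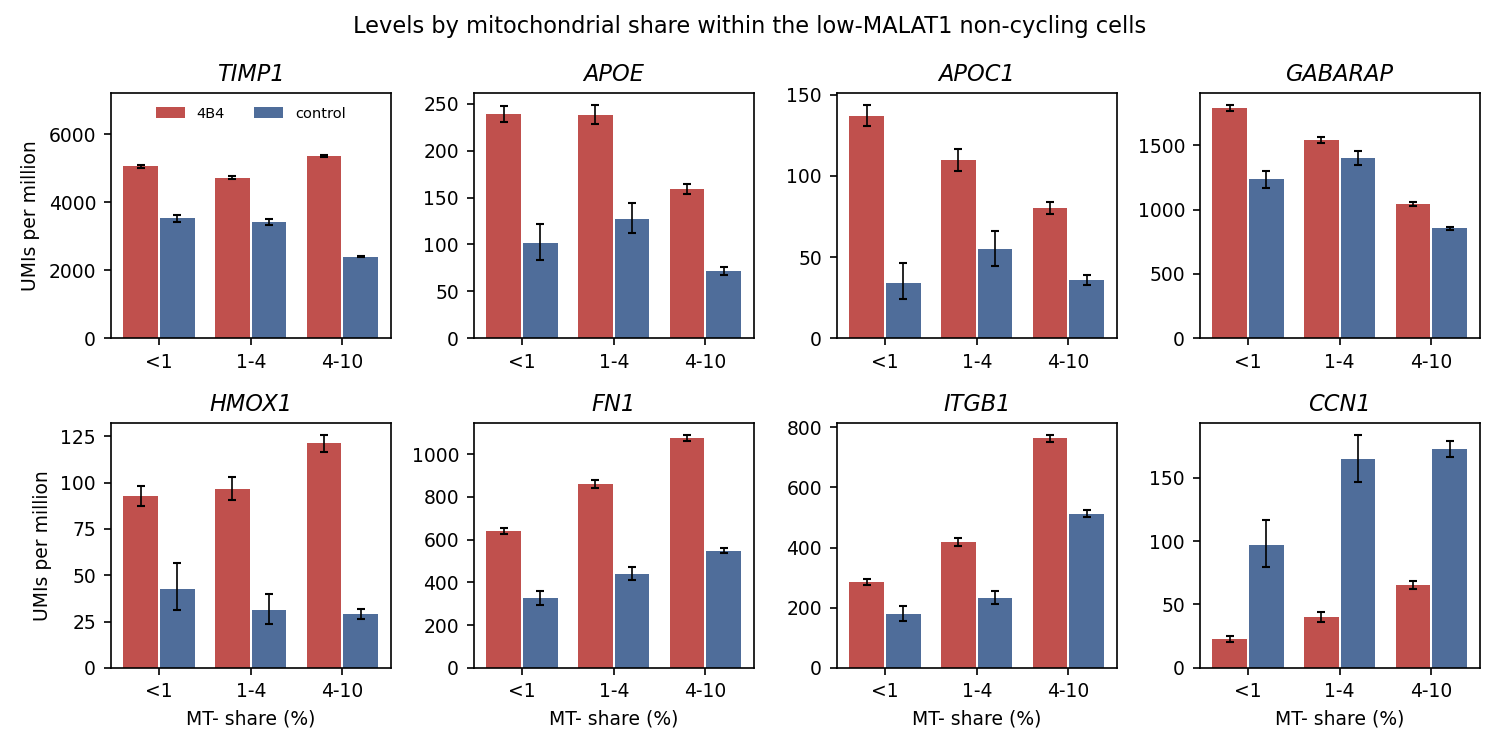
Levels in UPM (95% Poisson intervals) of 8 genes in low-MALAT1 cells of 3 classes of MT- share, for 4B4 (left bars; 86, 74 and 296 cells) and control (right bars; 25, 39 and 471 cells). ITGB1 and FN1 rise with the MT- share in both libraries and GABARAP is lowest at 4 to 10%, and the order of the libraries is the same in each class for the genes drawn.

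Among 32 focal adhesion and caveola genes 0 were called higher and 2 lower (6.25%), below the 8.88% of all genes. CAV1, the main caveola protein, had 41.7 UPM in 4B4 cells and 111 in control cells (-1.41; -1.50 to -1.32), and CAV2 had 12.95 and 22.01 UPM. The rest ranged from -0.56 for PARVA to 0.34 for ZYX. Of 37 other adhesion receptors 1 was called higher and 8 lower, or 2.70% and 21.6%, against 2.54% and 8.88% of all genes. That balance was not kept: DESeq2 scaling gave 3 higher and 3 lower, as did cells with MALAT1 under 1000 UPM, and the cells matched on MALAT1 and MT- share gave 4 and 2. TENM2, a teneurin of neuronal contacts whose gene spans 979.4 kb, had 8.01 and 54.3 UPM (-2.76; -2.94 to -2.59), and -1.36 in cells matched on MALAT1 and MT- share. In those matched cells CD44, the hyaluronan receptor, CDH2, ALCAM, TENM3 and NCAM1 had ratios from -0.18 to -0.06, against -0.71 to -0.59 in all low-MALAT1 cells. The last 4 span 226.5, 210.0, 659.0 and 317.2 kb. SDC2, a heparan sulfate carrier, was the higher one, with 24.1 and 13.3 UPM (0.85; 0.66 to 1.05).

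Stress genes split by pathway. Of 149 measured members 8 were called higher and 19 lower, or 5.37% and 12.8%, against 2.54% and 8.88% of all genes, with a median of -0.01. The balance was not kept in cells of 30000 to 90000 UMIs. More stress genes were called higher than lower there, while all genes at 20 UPM counted 134 higher and 368 lower. With TMM or DESeq2 scaling lower calls were fewer, among stress genes and among all genes. HMOX1, which splits haem into biliverdin, carbon monoxide and iron, differed most. It had 108 UPM (4804 UMIs) in 4B4 cells and 30.1 UPM (600 UMIs) in control cells, a ratio of 1.84 (1.72 to 1.97), and 83.3% of 4B4 cells and 44.9% of control cells had at least 1 UMI. With each cell thinned to 16000 UMIs, since 4B4 cells were deeper, the shares were 57.9% and 26.7%. The ratio was 1.12, 1.64 and 2.06 in the 3 classes of MT- share and 2.25 in MALAT1-rich cells. FTH1, the ferritin heavy chain that stores iron, had 8384 and 5026 UPM (0.74; 0.73 to 0.75), and 0.47 in cells matched on both measures. FTL, the light chain, had a ratio of 0.43, short of 1.5-fold, and 0.03 in the matched cells. Reads of ferritin genes can be shared with their many processed copies. ME1, which makes NADPH, had 86.3 and 54.5 UPM, and the other 17 of 20 NRF2 and haem genes were not called.

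The p53 targets were lower as a list, with 0 of 20 measured called higher, 9 lower (45.0%, against 8.88% of all genes) and a median of -0.53. PLK2 had 13.8 UPM in 4B4 cells and 48.6 in control cells (-1.81; -1.96 to -1.67), FDXR, a mitochondrial reductase, 35.3 and 73.6 (-1.06), and MDM2, the ligase that degrades p53, 40.7 and 84.5 (-1.06). In cells matched on MALAT1 and MT- share 5 of 20 were called lower, against 3.89% of all genes, and MDM2 had -0.31. Under TMM or DESeq2 scaling 6 of 20 were called lower, against 242 of 5613 and 220 of 5616 genes at 20 UPM. Immediate early genes counted 2 higher and 6 lower of 22, or 9.09% and 27.3%, against 2.54% and 8.88% of all genes. Their median was 0.03, with 12 ratios above 0 and a highest ratio of 0.68. In the matched cells they counted 1 and 3, against 5.36% and 3.89% of all genes. Among the lower ones FOSL1 had 37.6 and 83.1 UPM, ATF3 25.4 and 53.5, and MYC 6.80 and 13.8. Before capture the cells were freed from the gel with collagenase, followed by trypsin, and an effect of that step on these genes was not tested.

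Among the other stress lists, none of 21 genes of the unfolded protein response was called in either direction, and 0 of 4 metallothionein genes. HSP90AA1, an abundant chaperone, had 901 UPM in 4B4 cells and 1324 in control cells (-0.55), short of 1.5-fold. Of 27 hypoxia and glycolysis genes 2 were called higher and 1 lower, or 7.41% and 3.70%, against 2.54% and 8.88% of all genes. Of their ratios 20 were above 0, and the median was 0.22. In cells of 30000 to 90000 UMIs 6 were called higher and 0 lower. There 134 of all 5731 genes at 20 UPM or more were called higher and 368 lower, while listed genes needed only 5 UPM. P4HA1, a collagen prolyl hydroxylase, had 71.4 and 42.6 UPM (0.75; 0.64 to 0.86), ALDOA 93.04 and 59.3, and SLC2A1, the glucose transporter, 30.2 and 47.4. VEGFA had 73.2 and 49.4 UPM, a ratio of 0.57. The ATF4 and amino acid list counted 1 higher and 3 lower of 19, or 5.26% and 15.8%, against 2.54% and 8.88% of all genes. The lower ones were ATF3, SLC7A1 and PSAT1. In the matched cells the list counted 0 and 0, against 5.36% and 3.89% of all genes. TRIB3, a target of ATF4, had 49.7 and 30.2 UPM (0.72), and 0.23 in the matched cells.

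Replication genes differed inside a subset defined as non-cycling. Of cells passing the gene and MT- filters, 138 of 1085 4B4 cells and 828 of 2113 control cells reached 60 UPM of TOP2A plus MKI67 and were left out. In the low-MALAT1 cells kept, the 90th percentile of summed S and G2M transcripts was 2450 UPM in the 4B4 library and 4409 in the control library. Whether cells in cycle remained in the subset, and more so in the control library, was not tested. The rule bounds TOP2A and MKI67 alone, and 27 of 36 measured S-phase genes were called lower in 4B4, against 8.88% of all genes, with a median of -0.90. They summed to 528.5 UPM in 4B4 cells and 910.1 UPM in control cells. TK1, thymidine kinase, had 8.35 and 44.3 UPM (-2.41; -2.59 to -2.23). In the cells with at most the median of S and G2M transcripts, 233 in the 4B4 library and 200 in the control library, 2 of 36 were called lower and 3 higher. These cells were chosen by the sum of the S and G2M genes themselves. That choice alone narrows the difference, so these counts decide nothing about S-phase genes. In the same cells 12 of 20 p53 targets were called lower, against 6.49% of all genes.

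Beyond the lists, the largest ratios named by size were as follows. Higher in 4B4 were LINC01088, LINC01433, HIST2H2AA4, SPINK4, IFITM1 and TDO2, besides S100A9, HMOX1, SPP1, APOC1, IL1B and APOE. LINC01433, a noncoding RNA, had 99.8 UPM in 4B4 cells and 29.8 in control cells (1.74; 1.62 to 1.87). IFITM1, an interferon-induced membrane protein, had 37.9 and 11.6 UPM. HIST2H2AA4 has a near-identical neighbour, so its 23.4 and 7.02 UPM are uncertain. SPINK4, a protease inhibitor, had 23.2 and 6.97 UPM (1.73), but 0.46 in the matched cells. Lower were TENM2, TK1, SLC35F3, CPA4, LYPD1, NCKAP5, FRMD5, ANKRD1, SAA1, AMOTL2, GLIS3 and SAMD4A. CPA4, a secreted carboxypeptidase, had 14.5 and 64.3 UPM (-2.14; -2.28 to -2.01), and LYPD1, a membrane-anchored Ly6 protein, 8.93 and 38.6 (-2.11).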

How the data were processed

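Single-cell RNA of 2 samples was read from UMI count matrices that the authors deposited as raw counts per gene and barcode. Per the submitters' processing notes they used Cell Ranger 7.1.0 and Seurat 5.0.1 on GRCh38, and per the labels' protocols the libraries were 10x Genomics Chromium 3′ version 3. The gene annotation and any barcode filter before deposit were not stated in the sources used here.

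Groups came from the treatment labels. Summed counts were scaled to UMIs per 1000000 UMIs with Python 3.11.15, numpy 2.4.6, scipy 1.17.1 and pandas 2.3.3, with no pseudocount. Levels have exact Poisson intervals, ratios and shares Clopper-Pearson intervals. With 1 library per group no test was run and no edgeR or DESeq2 model was fitted. TMM factors (edgeR 4.0.16) and DESeq2 1.42.0 size factors served as other scalings. Calls needed 1.5-fold and the interval on the same side of 1, at 20 UPM for all genes, 5 UPM for listed genes and 50 UPM against MALAT1-rich cells. The call rule was run on simulated counts with counting error only. Differences between cells or between libraries were not simulated, so the run does not bear on them. Gene IDs matched GENCODE release 29 for 94.6%. No doublet caller was run, and an alternative kept cells of 30000 to 90000 UMIs. For another, cells were thinned to 16000 UMIs, which left out 14 of the 4B4 cells and 52 of the control cells.

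The members and lists were chosen with earlier results of these data known. Genes were named by rule: the 12 largest ratios each way at 20 UPM with 1 sign under every alternative, leaving out MT-, ribosomal protein, clone-named and sex-specific genes, then up to 4 per list, a fixed set, and 10 each way against MALAT1-rich cells. Others in the text were chosen after their values were seen. Some listed genes are not reported here by name.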

Additional observations from a re-analysis of the deposited data

Results flagged for a closer look

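LINC01473, a noncoding RNA, had a log2 ratio of 4B4 over control of -0.74 in low-MALAT1 cells and 0.16 in MALAT1-rich cells, with counting intervals on opposite sides of 0. The difference between the 2 sets of cells was not tested. It is among the genes that separate the 2 sets, with 7.90 UPM in 4B4 cells and 13.2 UPM in control cells of the low-MALAT1 set.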

How the results depend on the processing

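No paired analysis was possible because each group is 1 library, and no replicate could be left out. For 94 named genes 1692 ratios were taken under 18 alternatives. Among genes called in the main result 0 ratios changed sign, and 24 genes fell below their call at least once. Among genes not called 22 ratios changed sign. The 12 genes named by size in each direction were picked for keeping 1 sign, so theirs was set in advance. All-gene calls, 126 higher and 342 lower, became 221 higher at 5% MT-, 250 with TMM, 289 and 220 with DESeq2 factors, 656 and 2473 with no floor, and 70 and 139 at 50 UPM. Family counts take the members that reach the floor under the setting itself. The 50 UPM floor also gave 9 secreted genes higher and 8 lower, 0 and 0 lysosomal, 0 and 8 adhesion, and 5 stress genes lower. Cells of 30000 to 90000 UMIs gave 13 secreted genes lower, 2 adhesion higher, and 17 stress higher and 12 lower.

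Lysosomal genes higher, 2 in the main result, were 0 at 20% MT- or without MT- in the total, 1 at MALAT1 under 4000, at few S and G2M transcripts or with each cell weighing the same, 4 with TMM, 6 with DESeq2 and 5 after thinning. Those lower, 1 in the main result, were 2 at 5% MT-, 3 at few S and G2M transcripts or no floor, and 0 after thinning or with DESeq2. Adhesion genes higher, 1 in the main result, were 5 at 5% MT-, 3 at few S and G2M transcripts or with TMM, 4 with DESeq2, and 2 at MALAT1 under 8000, after thinning or without the top 1% of cells. Stress genes lower, 19 in the main result, were 11 with TMM or DESeq2.

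Low-MALAT1 shares were 76.0% in 4B4 and 77.1% in control at 5% MT-, and 43.8% and 35.4% at MALAT1 under 4000. They were 46.0% and 38.2% at 20% MT-, and 51.2% and 47.2% at MALAT1 under 8000. Genes higher than in MALAT1-rich cells, 156, were 56 at 5% MT-, 316 with bounds of 4000 and 8000, and 94 without MT- and MALAT1 in the total.

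The rest were added after seeing the data. MALAT1 under 1000 gave 144 genes lower, 1 lysosomal higher, 3 adhesion higher, and 5 stress higher and 10 lower. With 4 to 10% MT- as well it gave 222 higher and 123 lower, lysosomal 1 and 0, secreted 22 and 14, adhesion 7 and 15, and 8 stress lower. Cells of 4 to 10% MT- alone gave 4 lysosomal higher, 3 adhesion higher, 11 stress lower and 63 higher than in MALAT1-rich cells. Weighting 5 MALAT1 bins alike gave 1 lysosomal higher and 0 lower. The cause of these changes was not tested.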
